A study of Mus musculus with 6 samples.

Results

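The integrated stress response and its ATF4 targets were described from 44 genes of mouse liver, chosen by name as eIF2-alpha kinases, the ATF4 and CHOP arm, genes of serine and amino acid supply, and cytosolic tRNA synthetases. All 44 were found among the 24421 gene symbols of the deposited count table, and 43 of them had enough reads to be among the 12945 genes tested. RNA came from whole livers of male C57BL/6 mice aged 4 months, of which 3 lacked Sesn3 (KO) and 3 were wild type (WT). Mice of both genotypes had been fed for 4 weeks on a diet with 20% of its energy from protein, 40% from fat and 40% from carbohydrate, supplemented with cholesterol (1.25%) and with sodium cholate (0.5%), a bile salt. The labels do not say how the Sesn3 allele was made, whether it was lost in liver cells alone, or whether the mice were littermates, and no group on a control diet is analysed here. Sesn3 itself, which encodes a stress-inducible regulator of mTORC1 and AMPK, had 16 to 18 reads in each KO library against 172 to 200 in each WT library.

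The integrated stress response begins with kinases that phosphorylate eIF2-alpha, the regulated subunit of the initiation factor that brings the initiator tRNA to the ribosome. Phosphorylation lowers protein synthesis in general and raises translation of a few mRNAs with upstream reading frames, ATF4 among them. ATF4 pairs with C/EBP factors at composite sites in DNA and drives genes of amino acid synthesis, amino acid uptake and tRNA charging, together with CHOP (Ddit3), TRIB3 and the phosphatase subunit that ends the response. In liver the pathway responds to amino acid shortage, unfolded proteins, mitochondrial stress, double-stranded RNA and heme deficiency. Transcript levels do not measure eIF2-alpha phosphorylation or ATF4 protein.

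Libraries held 18882220 to 24098512 reads. Levels are given as CPM, read counts scaled to a common library size after correcting each library with its TMM factor, and comparisons between genes use CPM per kilobase of annotated exon. That length joins the exons of all annotated transcripts of a gene (13.9 kilobases for Slc7a11, 3.53 for Slc3a2). It can exceed the length of the RNA expressed, so ratios, ranks and sums across genes depend on the annotation. Each gene was tested with edgeR's quasi-likelihood test, with p-values adjusted by the Benjamini-Hochberg method over all 12945 genes and a threshold of 0.05, and a gene is said to have risen or fallen only if it passed. Libraries correlated at 0.976 to 0.985 within KO and at 0.948 to 0.978 within WT, and WT replicate 2 had the lowest correlations with the KO libraries (0.911 to 0.931). The labels name no separate culture, litter or batch, so p-values measure the spread between these samples.

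Of the 43 tested members, 11 rose and 1 fell in KO. The same test called 6.94% of all tested genes, 3.36% higher and 3.58% lower. The members were chosen with earlier results of these data known, so this comparison is not independent of them. KO libraries lay wholly above WT libraries in 20 members and wholly below in 4, against 16.9% and 16.6% (together 33.5%) of all tested genes. The median log2 fold change of the tested members was 0.46, beside 0.00 over all tested genes. Among 14 regulators 6 rose, none fell and the median was 0.50, the risers being transcription factors, their cofactors and a phosphatase subunit. Among 28 biosynthetic targets 5 rose, none fell and the median was 0.56, with the risers spread over the 16 enzymes and transporters and none among the 12 tRNA synthetases. Leaving out 1 library lowered the number of risers to 4, 1 and 5 without KO replicates 1, 2 and 3, to 7 without WT replicate 1 and to 5 without WT replicate 3. It was 10 without WT replicate 2. Over all genes, 435 were called higher with all libraries, and 144, 48 and 130 without KO replicates 1, 2 and 3. Without WT replicates 1, 2 and 3 these were 504, 405 and 132. The median of all tested members was 0.31 without KO replicate 1 and 0.72 without KO replicate 3, and that of the biosynthetic targets 0.36 and 0.75. Fewer cells of a type and less RNA per cell cannot be told apart in whole liver.

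**Figure D1:**
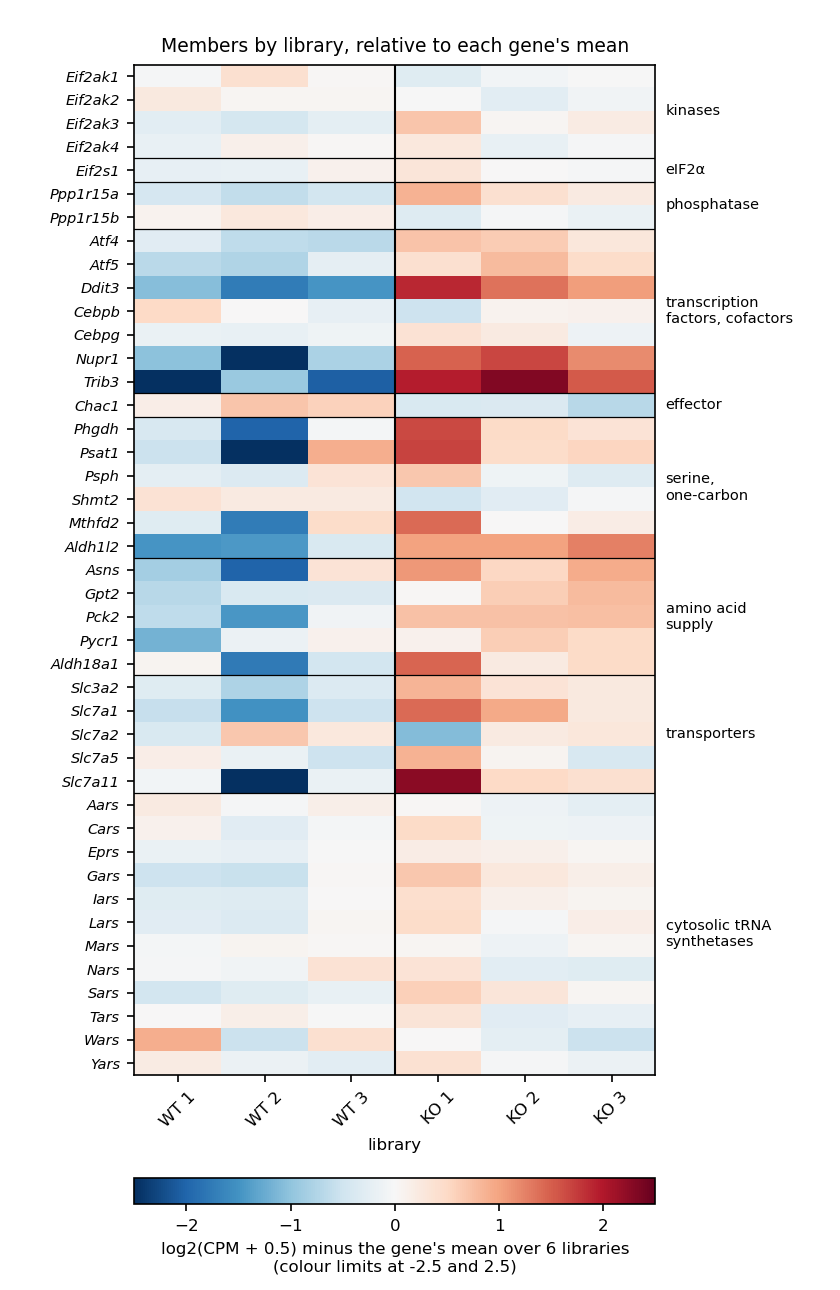
Heat map of the 43 tested members (rows, grouped by role) in the 3 WT and 3 KO libraries (columns); colour is log2(CPM + 0.5) minus the gene's mean over the 6 libraries. Ddit3, Nupr1 and Trib3 are low in every WT library and high in every KO library, while several biosynthetic genes are lowest in WT replicate 2 and highest in KO replicate 1.

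**Figure D2:**
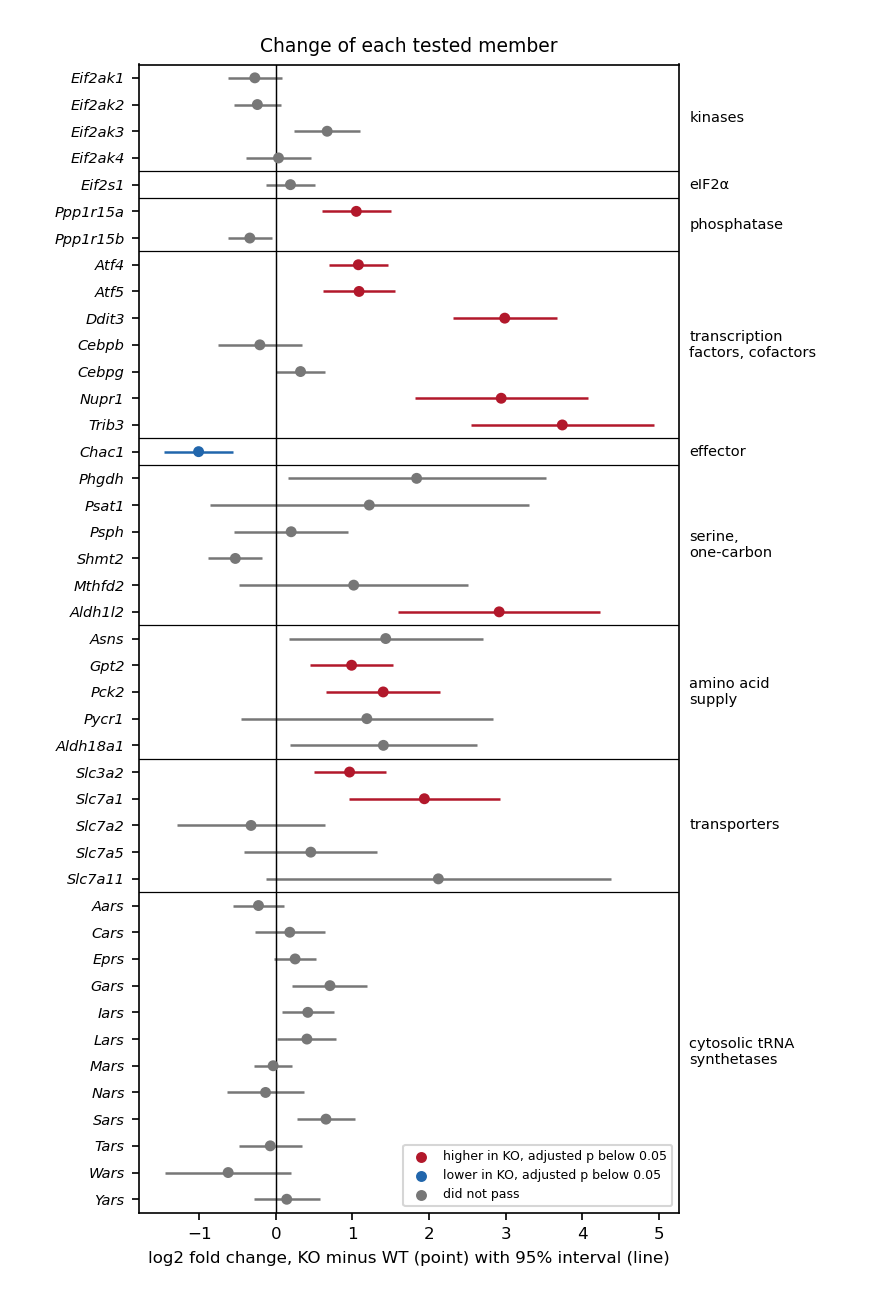
Log2 fold change of KO minus WT (horizontal axis, point) with its 95% interval (line) for each tested member, red or blue where the edgeR adjusted p was below 0.05. The 11 members in red lie among the phosphatase subunits, transcription factors and cofactors, amino acid enzymes and transporters, Chac1 is in blue, and the 12 synthetases are all in grey.

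The recognition site of ATF4 with a C/EBP partner was searched as TGATGNAA on both strands of the promoter windows in RefSeq (GRCm38.p6), which run from 250 bases before to 50 bases after each gene's start. Windows were matched for 36 of the 44 members, and 12 of those (33.3%) held the letters, against 2.84% of 10334 tested genes with a window and 4.51% of 27025 genes with a window. The members were chosen by name as genes of the ATF4 pathway, so this share is not independent of that choice. There were 14 matches in the 12 members, and the 12 matches of 11 of them are shown. These stretches were picked for holding the match, so that they share it follows from the choice. Each stretch is 30 bases long, is read on the strand on which the match reads TGATGNAA, and has the match in capitals.
Nupr1: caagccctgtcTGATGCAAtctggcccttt
Trib3: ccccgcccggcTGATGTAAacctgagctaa
Chac1: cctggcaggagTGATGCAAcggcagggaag
Asns: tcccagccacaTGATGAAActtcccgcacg
Pck2: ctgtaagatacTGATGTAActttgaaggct
Pycr1: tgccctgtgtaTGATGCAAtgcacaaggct
Slc7a11, upstream match: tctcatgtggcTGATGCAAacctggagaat
Slc7a11, downstream match: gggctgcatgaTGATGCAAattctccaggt
Gars: cgcccggtgcaTGATGAAAtagcgcagcca
Iars: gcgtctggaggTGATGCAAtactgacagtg
Tars: agctaaccagcTGATGCAAcgggactcctg
Yars: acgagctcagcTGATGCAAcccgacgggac

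The match read TGATGCAA at 9 sites of 8 genes, TGATGAAA at 3 sites and TGATGTAA at 2 sites. It began before the start at 10 sites and after it at 4 sites. The stretch of Nupr1 is at chr7:126625562-126625591, with the match 110 bases before the start, that of Asns at chr6:7693214-7693243, 23 bases before it, and that of Pck2 at chr14:55540152-55540181, 103 bases before it. The stretch of Trib3 at chr2:152344028-152344057 has its match 14 bases after the start. The upstream sequences of Nupr1, which rose, of Chac1, which fell, and of Slc7a11, which held a pair of matches, are given in full on the gene's strand, with matches in capitals (a match on the other strand appears as its reverse complement).
Nupr1, chr7:126625471-126625720, minus strand: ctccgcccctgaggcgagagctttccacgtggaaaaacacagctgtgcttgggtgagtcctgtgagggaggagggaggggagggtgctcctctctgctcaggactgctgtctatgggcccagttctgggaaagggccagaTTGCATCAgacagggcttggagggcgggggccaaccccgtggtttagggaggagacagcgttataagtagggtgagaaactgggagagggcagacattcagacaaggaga
Chac1, chr2:119350992-119351241, plus strand: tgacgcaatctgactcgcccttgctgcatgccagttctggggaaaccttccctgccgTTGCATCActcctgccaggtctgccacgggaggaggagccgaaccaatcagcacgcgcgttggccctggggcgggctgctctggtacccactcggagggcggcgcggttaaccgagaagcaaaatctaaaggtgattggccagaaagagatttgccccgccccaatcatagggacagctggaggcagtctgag
Slc7a11, chr3:50443614-50443863, minus strand: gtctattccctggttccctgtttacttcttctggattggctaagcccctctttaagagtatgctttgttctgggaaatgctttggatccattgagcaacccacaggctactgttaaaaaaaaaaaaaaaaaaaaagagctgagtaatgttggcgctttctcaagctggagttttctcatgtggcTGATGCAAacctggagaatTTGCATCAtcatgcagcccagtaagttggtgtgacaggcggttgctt

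The letters were in the windows of 3 of 10 members that rose (Nupr1, Trib3 and Pck2) and of 9 of the 26 others, among them Chac1, which fell, and 5 of the 8 synthetases with a window. The windows of Atf4, Atf5, Ddit3, Ppp1r15a, Gpt2, Slc3a2 and Slc7a1, which rose, held no TGATGNAA, which says only that these letters are not within those bases. With the shorter TGATGNA the share was 44.4% of members with a window and 8.90% of tested genes. The cyclic AMP response element TGACGTCA was in 1 window, that of Ppp1r15a (3.45% of tested genes). A match is a description of sequence and was not tied to binding here.

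**Figure D3:**
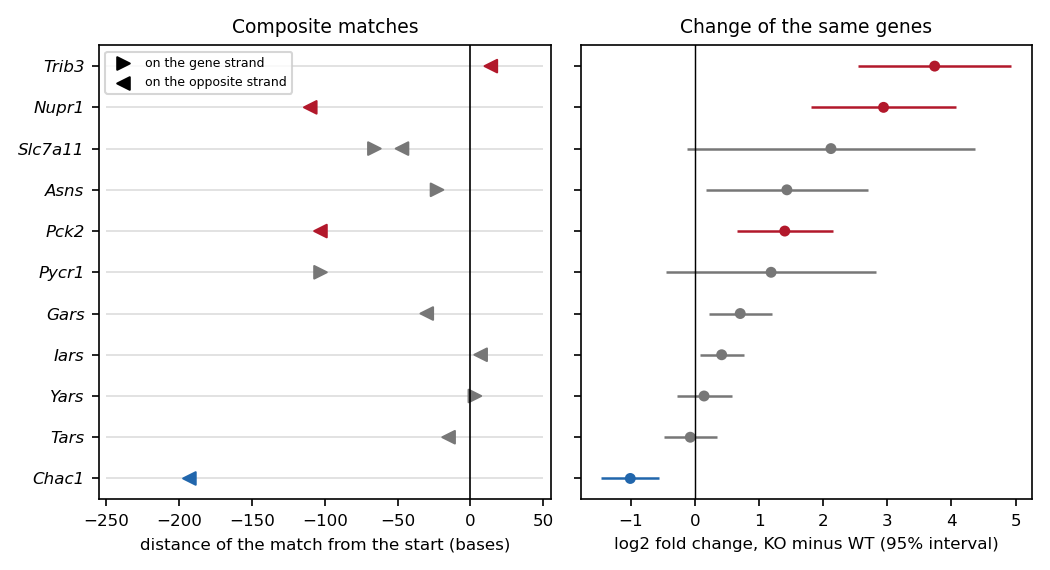
Left, position of each TGATGNAA match of the same 11 members relative to the gene's start, in bases, with the arrow showing the strand of the match; right, log2 fold change of KO minus WT of the same genes with 95% intervals. The genes shown range from Trib3 at 3.74 to Chac1 at -1.01.

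None of the 4 eIF2-alpha kinase transcripts passed the test, nor did that of eIF2-alpha itself. Eif2ak3 encodes PERK, the kinase that senses unfolded protein in the endoplasmic reticulum. It was at 41.4, 26.3 and 29.6 CPM in KO replicates 1 to 3 and at 21.1, 18.6 and 21.3 CPM in WT replicates 1 to 3. The groups did not overlap, and the log2 difference of 0.67 (SE 0.18) missed the threshold (edgeR adjusted p = 0.0689), though DESeq2 called it. Eif2ak1, the heme-regulated kinase HRI, was at 44.4, 52.6 and 54.5 CPM in KO against 53.7, 72.9 and 56.5 CPM in WT. The groups overlapped, with a log2 difference of -0.27 (95% interval -0.62 to 0.08). Eif2ak2, the double-stranded RNA sensor PKR, was at 16.9, 14.2 and 16.03 CPM in KO against 20.3, 17.7 and 17.7 CPM in WT. All 3 KO libraries lay below WT, by -0.24 on the log2 scale (95% interval -0.55 to 0.07). Eif2ak4, the amino acid sensor GCN2, was at 11.1, 8.06 and 8.96 CPM in KO against 8.01, 10.1 and 9.40 CPM in WT. Its groups overlapped, with a log2 difference of 0.04 (95% interval -0.39 to 0.46). Eif2s1, which encodes eIF2-alpha, was at 66.4, 54.5 and 52.8 CPM in KO against 46.8, 47.4 and 57.8 CPM in WT, and its groups overlapped (log2 0.19, 95% interval -0.13 to 0.52).

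Per kilobase of exon Eif2ak1 was the highest kinase in both genotypes, at 8.91 ± 0.946 in KO and 10.8 ± 1.83 CPM per kilobase in WT. Eif2ak3 came next in KO at 5.38 ± 1.32, above Eif2ak2 at 3.07 ± 0.270, while in WT Eif2ak2 (3.63 ± 0.288) and Eif2ak3 (3.38 ± 0.252) differed by less than their spreads together. Eif2ak4 was lowest in KO and WT at 1.26 ± 0.210 and 1.23 ± 0.140 (SD, n = 3 each). The summed level of the 4 kinases was 18.6 ± 1.03 CPM per kilobase in KO and 19.0 ± 1.53 in WT. By an unadjusted p below 0.05, 1 of the 4 kinases differed, and DESeq2 called 1 and limma-voom none. Over all 12945 tested genes, at least 3051 and fewer than 3363 had such a p. DESeq2 called 921 of all genes higher and 1061 lower, and limma-voom 424 and 443.

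Of the phosphatase subunits that reverse eIF2-alpha phosphorylation 1 of 2 rose. Ppp1r15a encodes GADD34, the subunit induced during the response. It was at 25.6, 18.4 and 16.2 CPM in KO against 10.3, 8.84 and 9.93 CPM in WT. Every KO library lay above every WT library, and it rose 2.07-fold (log2 1.05, SE 0.19, edgeR adjusted p = 0.0250). Ppp1r15b encodes CReP, the constitutive subunit, and was at 93.5, 115 and 105 CPM in KO against 125, 140.3 and 131 CPM in WT. All KO libraries lay below WT, but the log2 difference of -0.34 (SE 0.12) did not pass (edgeR adjusted p = 0.137). The ratio of Ppp1r15a to Ppp1r15b, per kilobase, was 0.521, 0.304 and 0.294 in KO against 0.156, 0.120 and 0.145 in WT. Ppp1r15a was no longer called when KO replicate 1 or 2 or WT replicate 3 was left out (highest adjusted p 0.0890).

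Of the 7 transcription factors and cofactors 5 rose. Atf4 was at 130.3, 123 and 96.6 CPM in KO against 65.4, 51.1 and 49.5 CPM in WT. The groups stood well apart, and Atf4 rose 2.11-fold (log2 1.08, SE 0.17, edgeR adjusted p = 0.0151). Atf5, a relative of Atf4 that is also controlled through upstream reading frames, had the highest level per kilobase of all 44 members in both genotypes, at 353 ± 52.0 in KO and 166 ± 34.4 CPM per kilobase in WT (SD, n = 3 each). It was at 632, 823 and 657 CPM in KO against 301, 284 and 410.1 CPM in WT. It rose 2.12-fold (log2 1.09, SE 0.20, edgeR adjusted p = 0.0250). Atf4 lost its call when KO replicate 2 or WT replicate 3 was left out (highest adjusted p 0.0775), and Atf5 without KO replicate 1, 2 or 3 or WT replicate 1 (highest 0.107).

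Ddit3, which encodes the transcription factor CHOP, was at 49.7, 34.0 and 27.3 CPM in KO against 6.02, 3.55 and 4.38 CPM in WT. The lowest KO library was far above the highest WT library, and Ddit3 rose 7.93-fold (log2 2.99, SE 0.29, edgeR adjusted p = 0.00429). It was the single member that passed without each of the 6 libraries in turn. Its ratio to Atf4, per kilobase, was 0.431 ± 0.0815 in KO and 0.115 ± 0.0168 in WT (SD, n = 3 each). Ddit3 lies on chromosome 10 from 127290774 to 127296288 (GRCm38, GENCODE M21) and its exons overlap those of Mars on the opposite strand. Mars was at 75.4 ± 5.11 CPM in KO and 77.2 ± 3.25 CPM in WT (SD, n = 3 each).

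Trib3 encodes a pseudokinase induced by ATF4 and CHOP that dampens ATF4 activity. It was at 189, 239.9 and 140.3 CPM in KO against 6.33, 25.0 and 11.4 CPM in WT. With all KO libraries at 140.3 CPM or more and all WT libraries at or below 25.0 CPM, it had the largest rise of the members, at 13.3-fold (log2 3.74, SE 0.51, edgeR adjusted p = 0.0119). Nupr1, a small chromatin-associated stress protein, was at 18.4, 21.3 and 14.9 CPM in KO against 2.88, 0.698 and 3.47 CPM in WT. The groups were apart, and it rose 7.68-fold (log2 2.94, SE 0.48, edgeR adjusted p = 0.0192). Per kilobase, Trib3 went from rank 22 of the 44 members in WT to rank 4 in KO, Ddit3 from 30 to 14 and Nupr1 from 38 to 25. Trib3 was no longer called when KO replicate 2 or WT replicate 3 was left out (highest adjusted p 0.0586) and had a log2 of 4.42 without WT replicate 2, and Nupr1 lost its call when KO replicate 1, 2 or 3 was left out (highest 0.0871).

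The C/EBP partners did not pass. Cebpb was at 56.8, 86.1 and 87.8 CPM in KO against 114, 81.8 and 70.2 CPM in WT, and its groups overlapped (log2 -0.21, 95% interval -0.75 to 0.34). Cebpg was at 70.6 ± 11.7 CPM in KO and 56.4 ± 1.32 CPM in WT (SD, n = 3 each; log2 0.32, SE 0.14, edgeR adjusted p = 0.196).

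The remaining effectors went otherwise. Chac1, which degrades glutathione and is a textbook target of ATF4 and CHOP, was at 8.12, 8.30 and 6.42 CPM in KO against 12.04, 17.7 and 16.2 CPM in WT. All KO libraries lay below all WT libraries, and Chac1 fell 2.01-fold (log2 -1.01, SE 0.20, edgeR adjusted p = 0.0282). It missed the threshold with scaling by library size only, which shifts the median of all genes by 0.21, and without KO replicate 1, 2 or 3 or WT replicate 3 (highest adjusted p 0.101). Stc2, the glycoprotein stanniocalcin 2, was too low to test, with 4, 4 and 7 reads in KO and 3, 0 and 1 in WT, where 0 reads allows up to 3 reads (0.174 CPM).

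**Figure D4:**
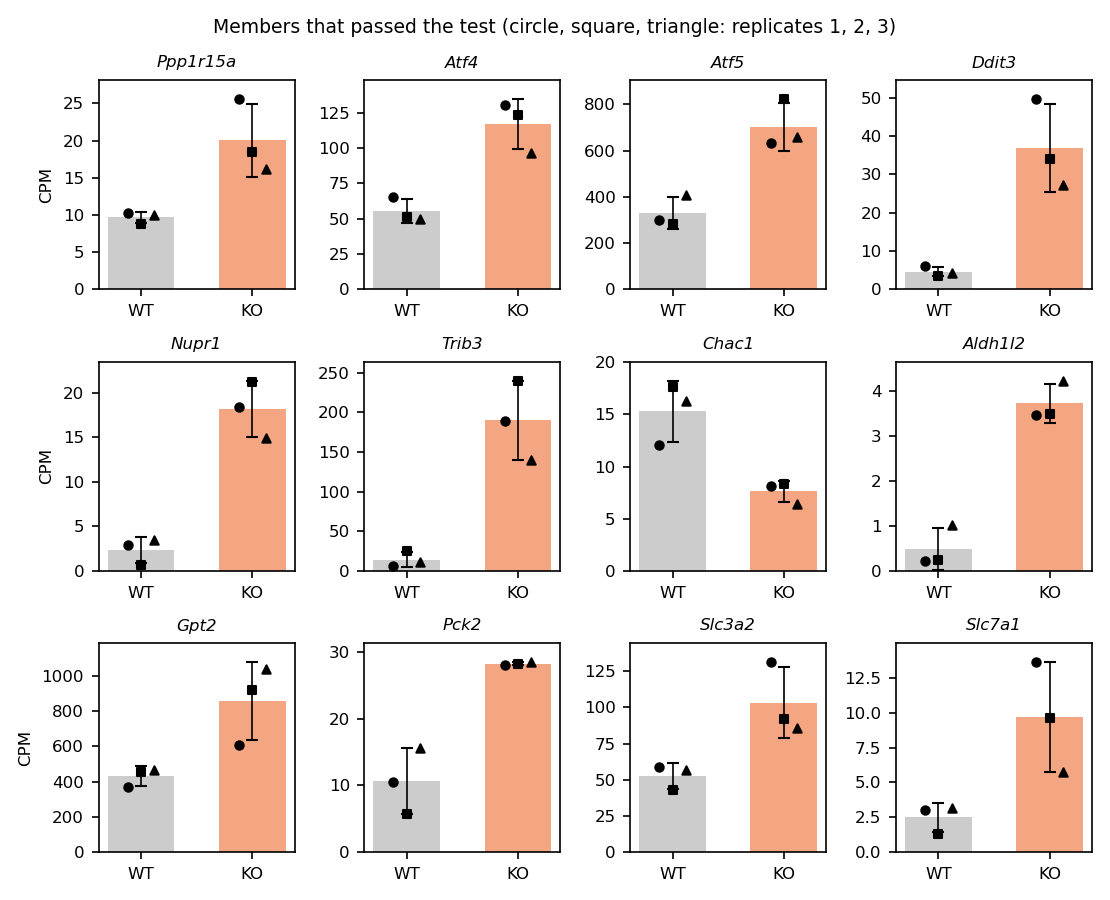
CPM of the 12 members that passed the test in WT and KO; bars are means, error bars SD (n = 3) and symbols the libraries of replicates 1 to 3. In each panel the KO and WT symbols do not overlap, and KO is lower only for Chac1.

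In the serine and one-carbon group 1 of 6 members rose. Aldh1l2, the mitochondrial formyltetrahydrofolate dehydrogenase, was at 3.47, 3.47 and 4.22 CPM in KO against 0.209, 0.233 and 1.01 CPM in WT. KO libraries were above WT by a wide margin but from few reads (4, 4 and 19 in WT), and it rose 7.54-fold (log2 2.91, SE 0.56, edgeR adjusted p = 0.0281). It was no longer called when KO replicate 1, 2 or 3 was left out (highest adjusted p 0.105), and its log2 was 4.05 without WT replicate 3. Phgdh, the first enzyme of serine synthesis from glycolysis, was at 8.75, 3.59 and 3.23 CPM in KO against 1.73, 0.233 and 2.35 CPM in WT. The groups did not overlap, yet the log2 difference of 1.84 (SE 0.71) did not pass (edgeR adjusted p = 0.162). Psat1, the next enzyme, was at 26.6, 11.2 and 11.8 CPM in KO against 5.34, 0.523 and 15.3 CPM in WT. WT replicate 3 was above 2 of the KO libraries, and the 95% interval of the log2 difference ran from -0.86 to 3.30. Psph, which completes the pathway, differed by 0.20 (95% interval -0.54 to 0.94).

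Neither of the remaining mitochondrial folate enzymes passed. Mthfd2, the methylenetetrahydrofolate dehydrogenase, was at 10.6 ± 6.46 CPM in KO and 5.24 ± 3.73 CPM in WT (SD, n = 3 each), and its groups overlapped. Shmt2, the mitochondrial serine hydroxymethyltransferase, was at 151, 172 and 207 CPM in KO against 270.0, 247 and 247 CPM in WT. All KO libraries lay below WT, and the log2 difference of -0.53 (SE 0.15) missed the threshold (edgeR adjusted p = 0.0773), though DESeq2 called it. Shmt2 made up most of the group's level per kilobase, so that the summed level of the 6 genes was 69.2 ± 5.61 CPM per kilobase in KO and 88.2 ± 5.44 in WT. Without Shmt2 the sums were 12.4 ± 6.27 and 6.32 ± 3.98 (SD, n = 3 each).

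Among the other enzymes of amino acid supply 2 of 5 rose and all 5 had positive log2 differences. Pck2, the mitochondrial phosphoenolpyruvate carboxykinase, was at 28.1, 28.1 and 28.4 CPM in KO against 10.6, 5.75 and 15.6 CPM in WT. The KO libraries were nearly equal, with a coefficient of variation of 0.702%, and Pck2 rose 2.64-fold (log2 1.40, SE 0.32, edgeR adjusted p = 0.0460). Gpt2, the mitochondrial alanine aminotransferase, was at 609.9, 919 and 1038 CPM in KO against 368, 457 and 468 CPM in WT. Its KO libraries were all higher, and it rose 1.99-fold (log2 0.99, SE 0.23, edgeR adjusted p = 0.0469). Both lay close to the threshold. Pck2 lost its call when KO replicate 1, 2 or 3 or WT replicate 1 was left out (highest adjusted p 0.146), and Gpt2 without KO replicate 2 or 3 or WT replicate 1, 2 or 3 (highest 0.167).

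Asns, the asparagine synthetase and a classical ATF4 target, was at 38.9, 26.3 and 34.9 CPM in KO against 9.84, 4.13 and 23.0 CPM in WT. Every KO library was above every WT library, but the WT values spread 5.58-fold, and the log2 difference of 1.43 (SE 0.54) did not pass (edgeR adjusted p = 0.152). Aldh18a1, which makes the precursor of proline and ornithine, was at 35.5, 14.9 and 17.97 CPM in KO against 13.3, 3.37 and 9.03 CPM in WT. Its groups did not overlap, and its log2 difference of 1.40 (SE 0.52) did not pass either (edgeR adjusted p = 0.146). DESeq2 called both genes. Pycr1, the proline-forming reductase, was at 1.17 ± 0.298 CPM in KO and 0.515 ± 0.415 CPM in WT (SD, n = 3 each), with a 95% interval of -0.45 to 2.83 for the log2 difference.

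Of the 5 amino acid transporters 2 rose. Slc3a2, the heavy chain that carries several light chains to the plasma membrane, was at 131, 92.3 and 85.8 CPM in KO against 58.9, 42.7 and 57.0 CPM in WT. All KO libraries were above WT, and it rose 1.95-fold (log2 0.96, SE 0.20, edgeR adjusted p = 0.0352). Slc7a1, a cationic amino acid transporter found in most cells, was at 13.6, 9.61 and 5.77 CPM in KO against 3.03, 1.34 and 3.15 CPM in WT, and rose 3.83-fold (log2 1.94, SE 0.42, edgeR adjusted p = 0.0397). Slc3a2 was no longer called when KO replicate 1, 2 or 3 or WT replicate 3 was left out (highest adjusted p 0.101). Slc7a1 lost its call when KO replicate 1 or 2 or WT replicate 1 or 3 was left out (highest 0.131) and with limma-voom.

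The light chains did not pass. Slc7a11, the cystine-glutamate exchanger, was at 19.4, 5.36 and 4.998 CPM in KO against 3.51, 0.0581 and 3.205 CPM in WT. KO replicate 1 was far above the other two KO libraries and WT replicate 2 had 1 read, so that the log2 difference of 2.12 had an SE of 0.95 (edgeR adjusted p = 0.218). Slc7a5, the large neutral amino acid exchanger, was at 7.79 ± 3.81 CPM in KO and 5.67 ± 1.45 CPM in WT (SD, n = 3 each; log2 0.46, 95% interval -0.41 to 1.32). Per kilobase, these light chains together came to 0.0916 ± 0.0299 of the level of Slc3a2 in KO and 0.114 ± 0.0246 in WT. Slc7a2, the cationic transporter typical of hepatocytes, was second only to Atf5 in level per kilobase in WT. It was at 413, 1019 and 1064 CPM in KO against 673, 1397 and 1053 CPM in WT, and the groups overlapped (log2 -0.32, 95% interval -1.28 to 0.64).

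None of the 12 cytosolic tRNA synthetases passed the test. By an unadjusted p below 0.05, 4 of the 12 differed, all higher in KO, and DESeq2 called 2 and limma-voom none. Over all 12945 tested genes, at least 3051 and fewer than 3363 had such a p, and DESeq2 called 921 higher and 1061 lower. The synthetases charge tRNAs with their amino acids, and several cytosolic ones are known ATF4 targets. Their log2 differences ran from -0.62 to 0.71 with a median of 0.16, 7 positive and 5 negative. Without KO replicate 1 the signs turned to 5 positive and 7 negative, with a median of -0.03, and without WT replicate 2 the median was 0.09. Without KO replicate 3 or WT replicate 1 it was 0.27 and 0.26, and with scaling by library size only 10 were positive and the median was 0.38. Gars, for glycine, was at 148, 111 and 103 CPM in KO against 64.8, 62.8 and 94.6 CPM in WT. Its groups did not overlap, and the log2 difference of 0.71 (SE 0.21) missed the threshold (edgeR adjusted p = 0.0867). Sars, for serine, was at 162, 131 and 110.3 CPM in KO against 77.0, 85.7 and 93.0 CPM in WT. It too stood apart and came nearest to the threshold among the 12 (log2 0.65, SE 0.16, edgeR adjusted p = 0.0558), and DESeq2 called both genes. Sars passed as well with library size only and without a low-count filter.

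Eprs and Iars also had all KO libraries above WT, at 173 ± 8.24 against 146 ± 11.1 CPM and at 82.2 ± 10.8 against 61.5 ± 8.36 CPM (SD, n = 3 each), and did not pass (log2 0.25 and 0.42). Lars, Cars and Yars had positive differences of 0.41, 0.18 and 0.14, and Mars, Tars, Nars and Aars negative ones of -0.03, -0.07, -0.13 and -0.23, each with overlapping groups. Wars, which interferon also induces, had the lowest value, -0.62 (95% interval -1.44 to 0.20), with WT at 60.5, 21.7 and 42.0 CPM. It passed as lower only without WT replicate 2. Per kilobase and summed, the 12 genes came to 264, 204 and 196 CPM per kilobase in KO replicates 1 to 3 and to 200.4, 184 and 221 in WT replicates 1 to 3, so that the groups overlapped.

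The synthetases were alike in which library was highest. KO replicate 1 was the highest KO library for all 12 of them, and for 22 of the 28 biosynthetic targets and 8 of the 14 regulators, against 39.9% of all tested genes. WT replicate 2 was the lowest WT library for 19 of the 28 biosynthetic targets and 6 of the 14 regulators, against 36.2% of all tested genes. These counts are descriptions of single libraries, and genes are not independent of each other. The median coefficient of variation of the 16 enzymes and transporters was 40.4% in KO and 52.4% in WT, beside 13.3% and 16.7% over all tested genes. For the 14 regulators it was 16.6% and 13.99%. The log2 difference of Asns was 1.023 without WT replicate 2 and 2.25 without WT replicate 3, and that of Slc7a11 was 1.19 without KO replicate 1.

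Some markers of other liver cells differed between the genotypes as well. Marker calls were not examined with a library left out. Stellate cell and fibroblast markers summed to 957 to 1244 CPM in KO against 312 to 523 CPM in WT, with 4 of 10 higher (Col1a1, Col1a2, Col3a1 and Dcn) and all 10 positive. Kupffer cell and macrophage markers summed to 2598 to 3130 CPM in KO against 1014 to 2512 CPM in WT, with 3 of 10 higher (Clec4f, Vsig4 and Trem2). WT replicate 2 had the lowest sums of both lists and the highest sum of hepatocyte markers. Hepatocyte markers summed to 137705 to 162090 CPM in KO against 117203 to 180329 CPM in WT, and 1 of 8, Serpina1c, fell. The same edgeR test called 3.36% of all tested genes higher and 3.58% lower. None of the endothelial (8 tested), cholangiocyte (6), lymphocyte (8) or neutrophil markers (4) passed, and in the pancreas list Pnlip, Prss1, Cel and Ctrb1 were at 0 in all libraries. The pancreas list summed to 7.35 to 8.53 CPM in KO against 13.6 to 56.9 CPM in WT and rested on Cela1, which did not pass. By an unadjusted p below 0.05, 2, 2, 1 and 0 of the endothelial, cholangiocyte, lymphocyte and neutrophil markers differed, and DESeq2 and limma-voom called none of them. In the same order, 1, 6, 3 and 1 had positive log2 differences and 7, 0, 5 and 3 negative ones. Endothelial markers summed to 194 to 416 CPM in KO against 360 to 463 CPM in WT. Cela1 had an unadjusted p below 0.05 and was called by DESeq2. The corresponding unadjusted counts were 8 of 10 stellate, 6 of 10 macrophage and 3 of 8 hepatocyte markers, and DESeq2 called 6, 6 and 3 of them. Over all 12945 tested genes, at least 3051 and fewer than 3363 had such a p, and DESeq2 called 921 higher and 1061 lower. The part of cell composition in the values of the members was not tested.

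Other genes that ATF4 is known to induce, from a list outside the 44, gave 5 of 22 higher and none lower, with a median log2 difference of 0.50. The list was chosen with earlier results of these data known, so its counts are not an independent check. DESeq2 called 7 higher and 1 lower, 3 were higher with no filter on low counts, and 1 was higher without KO replicate 1, 2 or 3 or WT replicate 3. Over all tested genes edgeR called 3.36% higher and 3.58% lower, and DESeq2 called 921 genes higher and 1061 lower. With no filter on low counts 498 genes were higher. Without KO replicates 1, 2 and 3 and WT replicate 3 there were 144, 48, 130 and 132. Fgf21, a liver hormone of fasting and stress, rose 29.3-fold and passed without each library in turn. Atf3, a stress-induced transcription factor, was at 85.3, 59.0 and 47.5 CPM in KO against 13.0, 2.4995 and 6.68 CPM in WT and rose 8.598-fold, with a log2 difference of 3.10 that was 3.796 without WT replicate 1. Slc1a4, a transporter of alanine, serine and cysteine, was at 52.0, 26.5 and 31.5 CPM in KO against 12.6, 3.95 and 7.21 CPM in WT and rose 4.62-fold. Sesn2, the sestrin induced by ATF4, was at 20.3, 22.0 and 22.5 CPM in KO against 13.6, 7.96 and 9.99 CPM in WT and rose 2.06-fold. The hormone gene Gdf15, named after its values were seen, rose 2.55-fold. Atf3, Slc1a4, Sesn2 and Gdf15 were each no longer called when KO replicate 1, 2 or 3 or WT replicate 3 was left out (highest edgeR adjusted p 0.0873, 0.109, 0.111 and 0.129), Gdf15 also without WT replicate 1 (0.0847), and Atf3 and Slc1a4 with no filter on low counts (0.0522 and 0.0558).

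Among 12 other genes of eIF2, its exchange factor eIF2B and their regulators none passed, and the median was 0.08, or 0.05 without KO replicate 2 or WT replicate 1 and 0.29, with 11 positive, with scaling by library size only. By an unadjusted p below 0.05 1 of them differed, and DESeq2 called 1 and limma-voom none. Over all 12945 tested genes, at least 3051 and fewer than 3363 had such a p, and DESeq2 called 921 higher and 1061 lower. Of 8 other cytosolic synthetases and 3 scaffold genes of the multisynthetase complex none passed either, with medians of 0.06 and 0.24. The first of these was -0.06 without KO replicate 1 and 0.01 without WT replicate 2. By an unadjusted p below 0.05 1 of those 8 and 0 of those 3 differed, and neither DESeq2 nor limma-voom called any. The 17 mitochondrial synthetases had a median of -0.20, with 13 negative and 1 lower, Nars2, at 14.1 ± 0.543 against 22.1 ± 2.73 CPM (SD, n = 3 each; log2 -0.65, edgeR adjusted p = 0.0366). An unadjusted p below 0.05 was found for 4 of the 17, DESeq2 called 1 higher and 1 lower, and limma-voom 1 lower. The median was -0.31 without WT replicate 1. With scaling by library size only it was 0.02, 8 of the 17 were negative and Nars2 missed the threshold, as it also did without KO replicate 1, 2 or 3 or WT replicate 2 or 3 (highest adjusted p 0.150).

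The endoplasmic reticulum chaperones and their regulators, which answer to the other arms of the unfolded protein response through ATF6 and XBP1, had mostly negative differences. Of 18 tested genes 15 had negative log2 differences, 3 fell and none rose, with a median of -0.72. An unadjusted p below 0.05 was found for 13 of the 18, and DESeq2 called 10 lower and limma-voom 4. Over all 12945 tested genes, at least 3051 and fewer than 3363 had such a p. DESeq2 called 1061 of all genes lower and limma-voom 443. With scaling by library size only 14 were negative and 1 fell. Leaving out KO replicate 1, 2 or 3 gave 5, 0 and 1 that fell, and leaving out WT replicate 3 gave 1. Derl3, a component of endoplasmic reticulum degradation, was at 1.06, 1.00 and 0.732 CPM in KO against 4.19, 7.38 and 10.3 CPM in WT and fell 7.76-fold. Creld2 and the co-chaperone gene Dnajb11 fell 3.37-fold and 1.88-fold. Hspa5, which encodes the main chaperone BiP, did not pass, with a log2 difference of -0.12 (SE 0.32). Derl3 lost its call when KO replicate 2 was left out (edgeR adjusted p = 0.0589), and Creld2 and Dnajb11 without KO replicate 2 or 3 or WT replicate 3 (highest 0.115 and 0.129) and with library size only.

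**Figure D5:**
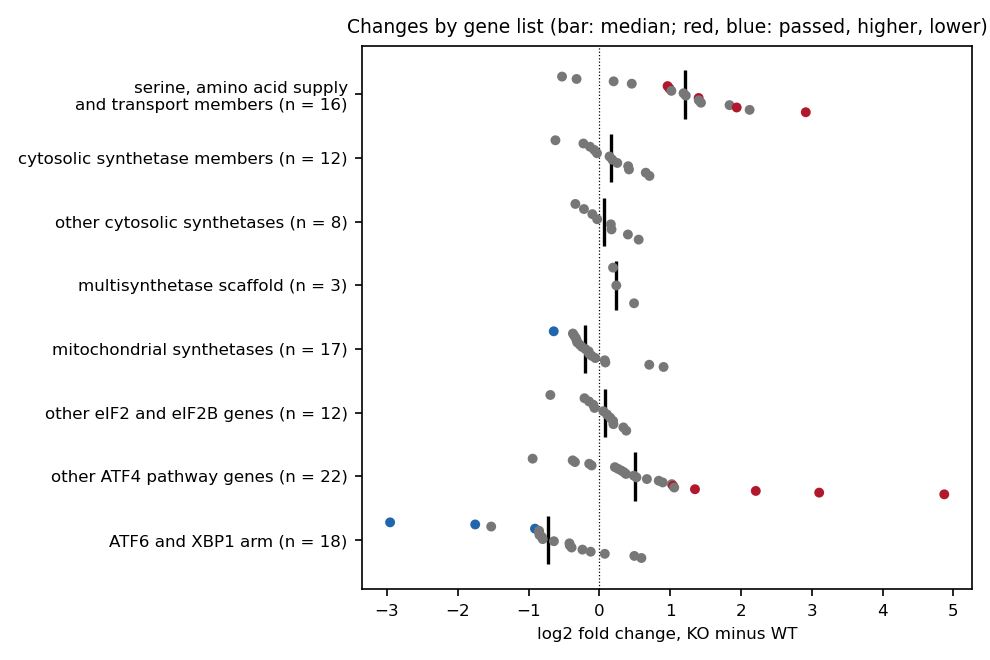
Log2 fold change of KO minus WT for each tested gene (points) in members of amino acid supply and the cytosolic synthetases and in 6 lists outside the 44, with list medians as bars; red and blue points passed the test. The medians are 1.204 for the 16 enzymes and transporters, 0.16 for the 12 synthetases and -0.72 for the ATF6 and XBP1 arm.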

How the data were processed

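The authors deposited whole-number read counts per gene symbol, 1 column per library, which were used as given. Tools listed in the submitters' processing notes are featureCounts, STAR 2.5, edgeR 3.20.8 and Subread 1.5.3, with the build mm10. No source used here gives their roles, the annotation or the strand setting, so genes with overlapping neighbours, such as Ddit3, Atf5, Ppp1r15a and Aldh1l2 among the risers, are uncertain. Libraries were grouped by the labelled genotype.

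Counts were tested with edgeR 4.0.16 (R 4.3.3): filterByExpr (minimum count 10, total 15), TMM factors, robust glmQLFit and a two-sided quasi-likelihood F-test with Benjamini-Hochberg adjustment. Standard errors are the log2 fold change over the root of F, and 95% intervals use them. The script was tested on simulated data. Exon lengths and positions came from GENCODE M21 and promoters from RefSeq GRCm38.p6. An exact permutation test of 3 against 3 libraries cannot go below 0.10. All 44 members are named by rule, and from other lists up to 4 called genes with the smallest p. Gdf15, Hspa5, Cela1 and the undetected pancreas genes were named outside that rule. Psat1, Shmt2, Cebpb, Ppp1r15b, Gars, Sars, Slc7a2 and Wars were given by library after their values were seen. The members and lists were chosen with earlier results of these data known. Alternatives were other scaling, other filters, DESeq2 1.42.0, limma-voom (limma 3.58.1), no robust dispersion, and leaving out each library. The sequence of 1 member's promoter matches is not reported here.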

Additional observations from a re-analysis of the deposited data

How the results depend on the processing

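With scaling by library size only, 707 genes were called higher and 258 lower over the whole table, against 435 and 463, and no member (0) was called lower. DESeq2 called 921 genes higher and 1061 lower, 2 members lower (Chac1 and Shmt2), 9 biosynthetic targets higher and 1 lower. Scaling by library size only shifts the median of all genes by 0.21 on the log2 scale. Leaving out 1 library gave 48 to 504 genes higher and 53 to 475 lower, 1 to 10 members higher and 0 to 2 lower, 1 to 6 regulators higher, and 0 to 4 biosynthetic targets higher and 0 to 1 lower. The lowest counts of higher genes came without KO replicate 2. Of the 12 called members, 1 (Ddit3) passed in all 6 of these fits, 10 passed under all 8 other settings and 0 changed sign. Of the 31 uncalled members, 9 changed sign in some setting, and 6 passed under a setting that kept all libraries. The causes were not tested. A shorter motif, TGATGNA, gave 44.4% of members with a window against 33.3%. No paired analysis was possible because the labels give no replicate numbers that link KO and WT mice. Intervals rest on the fitted model and on the spread between these libraries, while limits from 0 reads cover counting error only. Genes of few reads, such as Aldh1l2, Pycr1 and Stc2, are the least precise.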
